A study of Mus musculus with 4 samples.

Results

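Nqo1 and 9 other genes of the oxidative stress response were followed at the level of DNA methylation in the maturing mouse colon. The 10 genes were Nqo1, Adck3, Nfe2l2, Keap1, Gclc, Gclm, Hmox1, Txnrd1, Srxn1 and Gpx2, out of 21410 autosomal protein-coding genes (GENCODE M1, mm9), and 854 of the 4076373 autosomal 200-bp bins that could be tested lay between 5 kb upstream of their starts and their ends. The list was drawn up because Nqo1 and Adck3 hold long runs of adjacent bins that were less methylated in P21 ISCs than at P0. For these 2 genes the ISC change with age is therefore given as a description, with no test. The differentiated cells gave separate libraries, but the study's methods name 1 pool of mice per age, so the libraries of both populations may come from the same animals. The change with age of Nqo1 and Adck3 in differentiated cells is therefore also read as a description. The other 8 genes were listed with earlier results of these data known. All values below are methylation levels, that is, methylated calls in percent of all calls with both strands of a CpG summed, and no transcript level was measured in these files.

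Cells came from the colon of young of a cross between the Lgr5-EGFP-CreER knock-in line and wild-type C57 mice. In carriers of the allele, cells with an active Lgr5 locus are labelled green and also make CreER. The study's methods name carriers only for P21, so the P0 litters may include pups without the allele. ISCs (intestinal stem cells) were sorted as Lgr5-EGFP+ cells and differentiated cells as EpCAM+ Lgr5-EGFP- epithelial cells, each at birth (P0) and at the end of suckling (P21). Whole-genome bisulfite sequencing gave 1 library for each of the 4 groups, made from DNA pooled over litters at P0 and over fewer reporter-positive young at P21, so there are no replicates. The EGFP-negative gate holds every differentiated epithelial type together, and it may hold stem cells that did not express the reporter. At P0 these may include stem cells of pups without the allele. Every Fisher's exact test below compares libraries, not conditions, and every interval (95%, Wilson for a level and Newcombe for a difference) covers only the error of counting: the PCR reads carry no molecular identifier, and some can be copies of one molecule. In such pools a change of level within cells and a change in the mix of cells cannot be told apart.

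The libraries held between 1023427645 and 1188114423 calls. The median CpG with any call had 16 calls in P0 ISCs, 25 in P0 differentiated cells, 17 in P21 ISCs and 21 in P21 differentiated cells. Promoters of 9 colonic epithelial marker genes had a median level of 2.36% to 4.73% in the 4 libraries, and those of 10 marker genes of immune, mesenchymal and endothelial cells had 67.4% to 75.6%. Of the latter list 15 of 1170 bins were lower and 9 higher at P21 in ISCs, and 21 were lower and 11 higher in differentiated cells, whereas of the epithelial list 65 of 749 bins were lower and 6 higher in ISCs, and 75 lower and 12 higher in differentiated cells. Of 4 stem cell marker genes 71 of 857 bins were lower in each population, and 22 and 23 higher. Of all bins 1.48% were lower and 1.07% higher at P21 in ISCs, and 1.86% and 0.992% in differentiated cells. The immune, mesenchymal and endothelial list stood at 1.28% lower in ISCs and 1.79% in differentiated cells. The epithelial list stood at 8.68% and 10.01% lower, and the stem cell list at 8.28% in each population. The part of other cell types in the results was not tested.

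The response to oxidants and electrophiles in most tissues, the gut lining included, is run by NRF2, the transcription factor encoded by Nfe2l2. KEAP1 binds NRF2 and hands it to an ubiquitin ligase; when its reactive cysteines are modified, NRF2 escapes, pairs with small MAF proteins and binds antioxidant response elements of genes for quinone reduction, glutathione synthesis, heme breakdown and thioredoxin recycling. Methylation of CpGs near a gene start often goes with low transcription, while methylation of gene bodies is the usual state of transcribed genes.

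Stretches of DNA with large differences are shown first. The bins below are those with the largest difference in differentiated cells among the bins of the Nqo1 and Adck3 runs described below and among the called bins of Keap1, read from the mm9 reference on the strand of the gene, 5′ to 3′, with each CpG in capitals. The first lies in intron 1 of Nqo1 (minus strand, chr8:109925801-109926000), the second in intron 1 of Adck3 (minus strand, chr1:182124201-182124400) and the third across exon 3 and intron 3 of Keap1 (minus strand, chr9:21036001-21036200).
Nqo1: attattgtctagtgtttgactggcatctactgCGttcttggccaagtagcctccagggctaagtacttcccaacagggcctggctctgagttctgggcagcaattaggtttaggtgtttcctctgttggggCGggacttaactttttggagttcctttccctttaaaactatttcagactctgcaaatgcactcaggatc
Adck3: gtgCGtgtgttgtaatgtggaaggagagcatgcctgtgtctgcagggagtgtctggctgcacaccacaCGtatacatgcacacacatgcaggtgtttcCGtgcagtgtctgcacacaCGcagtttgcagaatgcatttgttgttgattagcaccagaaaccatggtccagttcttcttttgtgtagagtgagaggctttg
Keap1: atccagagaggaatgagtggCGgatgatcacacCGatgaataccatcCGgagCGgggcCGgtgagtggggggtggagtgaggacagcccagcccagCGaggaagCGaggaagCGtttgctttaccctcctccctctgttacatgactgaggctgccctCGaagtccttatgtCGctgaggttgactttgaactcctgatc

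In the Nqo1 stretch the first CpG had 100% of 18 calls methylated in P0 ISCs and 7.41% of 27 at P21, and 76.1% of 46 in P0 differentiated cells and 0% of 17 at P21, a count of 0 that allows a level of up to 17.6%. The second CpG had 80% of 5 calls and 10% of 20 in ISCs, and 100% of 10 and 16.7% of 6 in differentiated cells. In the Adck3 stretch the third CpG went from 100% of 11 calls to 0% of 8 in ISCs (a limit of 37.5%) and from 92% of 25 to 12.5% of 16 in differentiated cells. The 10 CpGs of Keap1 differed among themselves: the first was at 68.8% and 70.2% at P0 and at 95.5% and 95.8% at P21 (ISCs, then differentiated cells), and the ninth was at 8.33% and 0% (a limit of 13.0%) at P0 and at 35.3% and 22.2% at P21.

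Across the 10 genes, more bins were lower at P21 than at P0 than were higher, in both populations. A bin was called when Fisher's exact test with Benjamini-Hochberg adjustment over all 4076373 bins gave an adjusted p below 0.05 and the levels differed by more than 15 points. In ISCs 83 of the 854 bins were lower (9.72%) and 12 higher. Of all autosomal bins 1.48% were lower and 1.07% higher, but Nqo1 and Adck3 were chosen on this contrast, and nothing is read from that difference. Without these 2 genes, 45 of 669 bins were lower in ISCs (6.73%) and 10 higher. In differentiated cells 94 of the 854 bins were lower (11.0%) against 1.86% of all autosomal bins, and 14 were higher against 0.992%, and without Nqo1 and Adck3 the counts were 56 of 669 lower (8.37%) and 13 higher. The same bin was lower in both populations in 56 cases and higher in both in 9, and no bin was lower in one and higher in the other. Without Nqo1 and Adck3, 27 of 669 bins were lower in both and 8 higher in both. Of all 4076373 autosomal bins 27417 were lower in both, 10405 higher in both and 320 moved in opposite directions. With so few opposite bins over all bins, nothing is read from their absence here. The median difference over the 854 bins was -1.88 points in ISCs and -1.38 in differentiated cells, beside 0 and -0.074 over all bins, and without Nqo1 and Adck3 it was -1.65 and -0.692. The shares of lower bins without these 2 genes (6.73% and 8.37%) did not exceed those of the epithelial marker list (8.68% and 10.01%). The stem cell list stood at 8.28% in each population, and the immune, mesenchymal and endothelial list at 1.28% and 1.79%. Differences between these lists were not tested.

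The 10 genes were far from alike. Of the bins of each gene, 21 of 64 were lower in ISCs in Nqo1, 7 of 25 in Gpx2, 17 of 121 in Adck3, 5 of 36 in Srxn1, 12 of 96 in Nfe2l2, 4 of 74 in Gclm, 11 of 222 in Txnrd1, 5 of 135 in Gclc, 1 of 53 in Keap1 and 0 of 28 in Hmox1. In differentiated cells Gpx2 had the highest share (12 of 25, 48.0%), followed by Nqo1 (21 of 64, 32.8%), Nfe2l2 (18 of 96, 18.8%) and Adck3 (17 of 121, 14.0%). Higher bins were found in Keap1 (3 in ISCs and 5 in differentiated cells), Txnrd1 (5 and 5), Gclc (2 and 3) and Adck3 (2 and 1), and in none of the bins of the other 6 genes. Nearby bins can be covered by the same reads, so these counts are not counts of independent events. Of all autosomal bins 1.48% were lower in ISCs and 1.86% in differentiated cells. The 0 of 28 in Hmox1 and the 1 of 53 in Keap1 are therefore not read as traits of these genes.

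**Figure D1:**
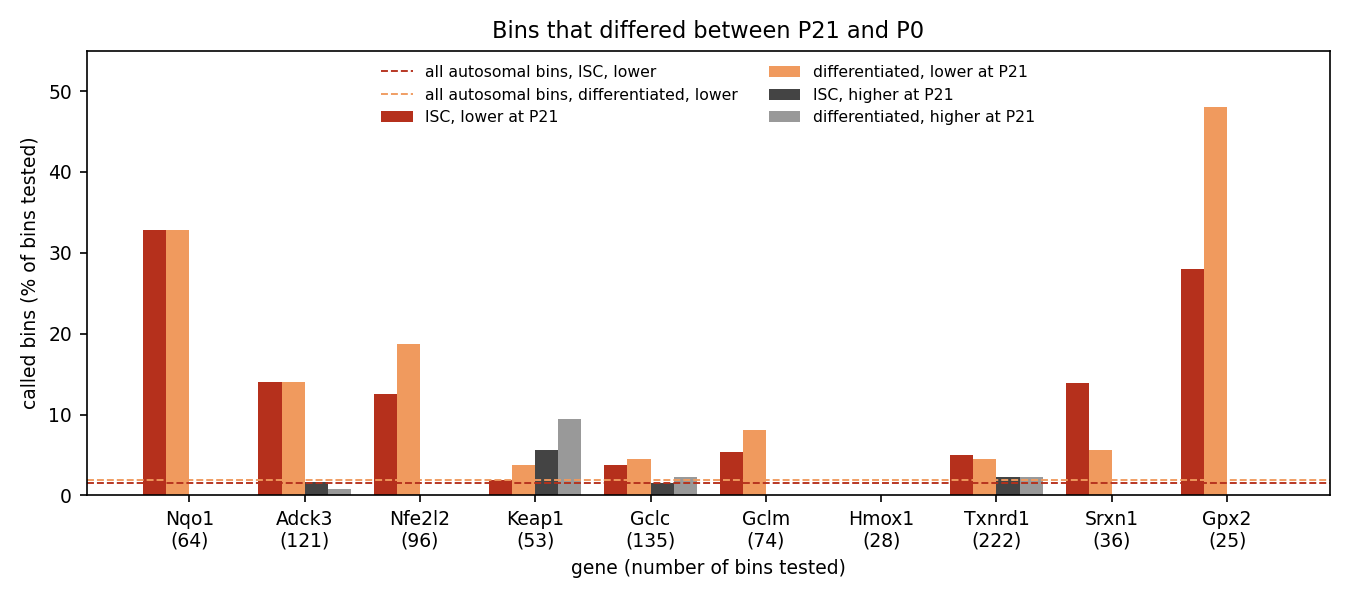
Share of tested 200-bp bins of each gene called lower or higher at P21 than at P0 (x axis: gene, y axis: percent of its bins), for ISCs and differentiated cells, with 1 library per group. Nqo1 and Gpx2 have the highest shares of lower bins in both populations, Hmox1 has no called bin, and Keap1 has more higher than lower bins. With 28 bins tested, the absence of calls in Hmox1 is not read as a trait of the gene.

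Nfe2l2 itself (chr2:75513570-75542698, minus strand) had an unmethylated start and lost methylation along intron 1. Its promoter, the 2 kb centred on the start with 134 CpGs, was at 0.551% in P0 ISCs, 0.492% in P0 differentiated cells, 0.540% in P21 ISCs and 0.450% in P21 differentiated cells. Intron 1 fell from 44.5% to 33.1% in ISCs (difference -11.4 points, interval -13.1 to -9.59, Fisher's exact adjusted p = 1.7e-33). In differentiated cells it fell from 39.5% to 27.5% (-11.97 points, interval -13.4 to -10.6, Fisher's exact adjusted p = 1.1e-59). The body, which holds most of intron 1, fell from 62.3% to 50.7% in ISCs (-11.7 points, Fisher's exact adjusted p = 1.3e-40). In differentiated cells the body fell from 62.4% to 50.3% (-12.1 points, Fisher's exact adjusted p = 3.6e-59). None of these falls passed 15 points. The lower bins were spread out and did not form a long run: the longest were 2 adjacent bins in ISCs and 3 in differentiated cells. The bin with the largest fall in ISCs, in intron 1 at chr2:75532201-75532400, stood at 79.5% and 17.9% there (adjusted p = 1.7e-05 by Fisher's exact test), and at 53.1% and 42.9% in differentiated cells. In differentiated cells the largest was upstream of the start at chr2:75544801-75545000, with 69.2% at P0 and 5.88% of 17 calls at P21. The last exon held 85.6% to 88.7% in all 4 libraries, and neither age difference there passed the test.

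Keap1 (chr9:21034174-21043776, minus strand), the sensor that restrains NRF2, moved in the opposite direction inside its body. The body rose from 67.02% to 73.5% in ISCs (6.47 points, interval 4.51 to 8.43, Fisher's exact adjusted p = 2.1e-09) and from 68.4% to 73.8% in differentiated cells (5.43 points, interval 4.05 to 6.80, Fisher's exact adjusted p = 2.7e-13). With equal weight for each bin the ISC value was 2.16 points. Of 18961 gene bodies ordered from the largest fall, Keap1 stood at place 18354 in ISCs and 18296 in differentiated cells. The rise centred on 2 adjacent bins around exon 3, one of which is printed above, which together held 31.0% in P0 ISCs, 24.8% in P0 differentiated cells, 60.1% in P21 ISCs and 62.8% in P21 differentiated cells. The printed bin alone went from 33.6% of 333 calls to 78.9% of 194 in differentiated cells (45.2 points, Fisher's exact adjusted p = 4.3e-21). The largest change in ISCs was a fall, in intron 1 at chr9:21039801-21040000, from 60% to 15.4% (Fisher's exact adjusted p = 0.00021). The promoter was low in every library (6.68%, 7.80%, 10.04% and 7.97% in P0 ISCs, P0 differentiated cells, P21 ISCs and P21 differentiated cells). It was 3.36 points higher at P21 in ISCs (interval 1.23 to 5.47, Fisher's exact adjusted p = 0.016), and in differentiated cells it differed by 0.169 (interval -1.24 to 1.64). Intron 1 was at 87.5%, 82.7%, 77.1% and 82.3% and fell in ISCs (-10.4 points, interval -15.2 to -5.36, Fisher's exact adjusted p = 0.00052). The window upstream and over Keap1 also overlaps S1pr5.

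Nqo1 (chr8:109912125-109927106, minus strand, 6 exons) encodes the quinone reductase that is the textbook target of NRF2. Its promoter, with 41 CpGs, was at 29.4% of 972 calls in P0 ISCs, 32.7% of 1516 in P0 differentiated cells, 10.2% of 1035 in P21 ISCs and 11.2% of 1390 in P21 differentiated cells. Both P21 libraries were thus lower than both P0 libraries, and differentiated cells stood 3.23 points above ISCs at P0 (interval -0.515 to 6.90; -2.29 with equal weight for each bin) and 0.981 above them at P21 (interval -1.55 to 3.44). It fell by 21.4 points in differentiated cells (interval of the change -24.3 to -18.5), given as a description. Of 21095 promoters this was the 140th largest fall in differentiated cells, in a window that overlaps the run by which the gene was chosen. Intron 1, 10053 bp long, went from 73.4% to 55.5% in ISCs and from 74.6% to 56.6% in differentiated cells (-18.0 points, interval -20.3 to -15.7). The body went from 74.7% to 61.0% in ISCs and from 77.1% to 62.5% in differentiated cells. The last exon went from 71.3% to 54.9% and from 74.4% to 61.0%. In differentiated cells these changes were -14.6 and -13.3 points, again as a description.

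The longest run of lower bins in Nqo1 lay just inside the gene. A run of 9 adjacent bins with 37 CpGs, chr8:109925201-109927000, began 106 bp downstream of the start and covered part of exon 1 and the first part of intron 1. It held 73.7% of 801 calls in P0 ISCs, 71.7% of 1445 in P0 differentiated cells, 31.98% of 885 in P21 ISCs and 40.02% of 1127 in P21 differentiated cells. The difference in differentiated cells, whose calls did not set the bounds of the run, was -31.7 points (interval -35.3 to -27.9), and 8 of the 9 bins were called lower there. The gene was chosen with earlier results of these data known, and both populations may come from the same animals. The differentiated values are therefore not independent support. Of the 37 CpGs 35 were lower at P21 in ISCs and 36 in differentiated cells. Differentiated cells minus ISCs came to -1.96 points for the run at P0 and 8.04 at P21 (1.64 with equal weight for each bin). Since the bounds of the run were set by high P0 and low P21 levels in ISCs, these gaps are descriptions and are not read as differences between the populations.

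Towards the start the P0 level within the run stepped down, in ISCs from 94.0% over 53.4% and 25.9% to 17.5% in its last 4 bins. Beyond them the bin over the start itself, with 8 CpGs, held 7.28% in P0 ISCs, 2.05% in P0 differentiated cells, 0.901% in P21 ISCs and 0% of 286 calls in P21 differentiated cells (a limit of 1.05%). It was low already at birth and lay outside the run for want of a 15-point difference. The bin at the other end held no CpG. Within the run the printed bin had the largest difference, from 95.7% of 23 calls to 8.51% of 47 in ISCs and from 80.4% of 56 to 4.35% of 23 in differentiated cells, while the bin farthest from the start went from 91.9% to 72.2% and from 90.4% to 73.0%. Reads of both strands showed the difference: in ISCs the plus strand went from 67.8% to 26.6% and the minus strand from 78.7% to 36.8%, and in differentiated cells from 63.2% to 21.3% and from 78.6% to 50.7%.

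Shorter stretches of Nqo1 also lost methylation. A 3-bin run in intron 5, chr8:109913601-109914200, stood at 50.8% in P0 ISCs, 72.0% in P0 differentiated cells, 9.44% in P21 ISCs and 14.5% in P21 differentiated cells. A 2-bin run in the middle of intron 1, chr8:109921601-109922000, stood at 42.0%, 41.8%, 12.2% and 5.78% in the same order. Upstream of the start, a 2-bin run at chr8:109927601-109928000 stood at 41.6%, 46.0%, 24.3% and 17.2%, and another at chr8:109929001-109929400 stood at 38.3%, 35.9%, 7.78% and 14.9%. These 4 stretches were picked as runs of bins called lower at P21 in both populations. That both P21 libraries lay below both P0 libraries in them is therefore a description. The first bin of the intron 5 run, chr8:109913601-109913800, was the single Nqo1 bin that differed between the populations at P0, with 25.4% in ISCs and 62.2% in differentiated cells (Fisher's exact adjusted p = 3.6e-06). At P21 it stood at 1.08% in ISCs and at 0% of 98 calls in differentiated cells, which allows up to 3.06%.

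**Figure D2:**
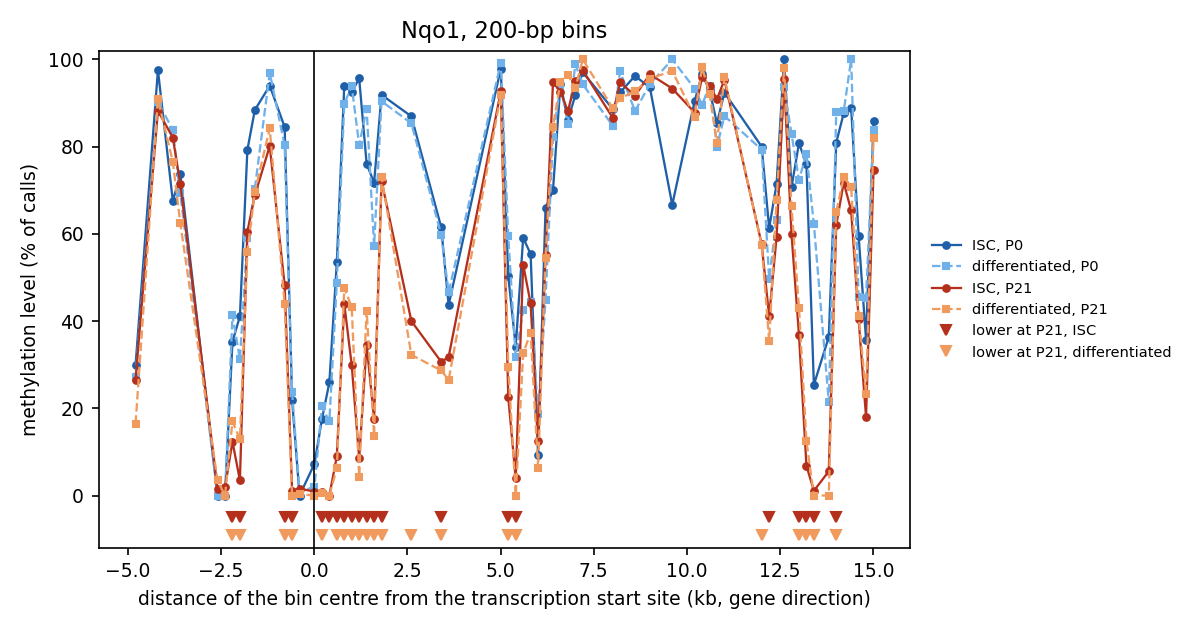
Methylation level of each tested 200-bp bin of Nqo1 (y axis, percent) against its distance from the start site (x axis, kb along the gene) in the 4 libraries. The P21 levels fall below the P0 levels just inside the gene, where the 9-bin run goes from 73.7% to 31.98% in ISCs and from 71.7% to 40.02% in differentiated cells.

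Adck3 (chr1:182095369-182129733, minus strand, 15 exons in the transcript used) encodes a mitochondrial atypical kinase needed for coenzyme Q synthesis, the quinone that NQO1 can also reduce. Its start was unmethylated throughout: the 44 CpGs within 250 bp of the start of Adck3-001 stood at 0.248%, 0.357%, 0.209% and 0.658% in P0 ISCs, P0 differentiated cells, P21 ISCs and P21 differentiated cells. Over the whole 2-kb promoter the levels were 23.9%, 14.3%, 25.9% and 14.98%, and the differences with age were 1.97 points in ISCs (interval -0.592 to 4.52) and 0.716 in differentiated cells (interval -0.646 to 2.09). The gap between the populations came with unequal coverage: the unmethylated 500 bp at the start gave 805 of 2064 promoter calls in P0 ISCs and 3637 of 5853 in P0 differentiated cells. Averaged over bins with equal weight, the populations differed by -1.40 points at P0 and -1.33 at P21 in place of -9.62 and -10.9.

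The change in Adck3 lay further in. A run of 10 adjacent bins with 30 CpGs in intron 1, chr1:182122801-182124800, began 1351 bp downstream of the start. It held 66.7% of 810 calls in P0 ISCs, 59.0% of 1601 in P0 differentiated cells, 17.5% of 850 in P21 ISCs and 15.1% of 1678 in P21 differentiated cells. All 30 CpGs were lower at P21 in both populations. The difference in differentiated cells was -43.8 points (interval -46.7 to -40.8), with 9 of the 10 bins called. Differentiated cells minus ISCs came to -7.70 points for the run at P0 and -2.39 at P21, again as a description, since ISC levels set the bounds of the run. The printed bin went from 82.5% of 40 calls to 2.56% of 39 in ISCs and from 76.3% of 97 to 6.49% of 77 in differentiated cells.

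Next to the run, the bin on the side of the gene end (2 CpGs) stood at 51.2%, 40%, 20% and 33.8%, a difference of more than 15 points in ISCs that was not called, and the bin on the side of the start had 1 CpG and was not tested. Nearly all calls of the run were on the minus strand: the plus strand gave 44, 29, 21 and 30 calls in the 4 libraries and the minus strand 766, 1572, 829 and 1648. The run therefore has next to no check from the other strand. Inside the run lies the annotated start of a second transcript with the same coding length, Adck3-201 (1935 bases), and the 7 CpGs within 250 bp of that start stood at 62.9%, 55.6%, 16.2% and 14.4%. A shorter coding transcript that also starts in the run, Adck3-011, stood at 56.0%, 51.5%, 13.8% and 9.43%. Of the coding transcripts of Adck3, the one with the most upstream start, Adck3-014, stood at 73.1%, 74.0%, 82.2% and 83.9%, so the low P21 levels were at some starts and not at others.

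Pooled over intron 1, which contains the run, Adck3 went from 55.8% to 38.6% in ISCs and from 51.7% to 37.2% in differentiated cells. The change in differentiated cells was -14.5 points (interval -16.1 to -13.0), given as a description. The last exon was at 87.7%, 90.6%, 88.3% and 91.0%, with no difference with age past the test in differentiated cells. One bin, chr1:182128201-182128400, moved the other way. It lies upstream of the Adck3-001 start but within the annotated gene. At P0 and P21 it stood at 41.1% and 77.5% in ISCs and at 38.6% and 66.2% in differentiated cells. It was called in differentiated cells. The windows of Adck3 and Cdc42bpa overlap.

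**Figure D3:**
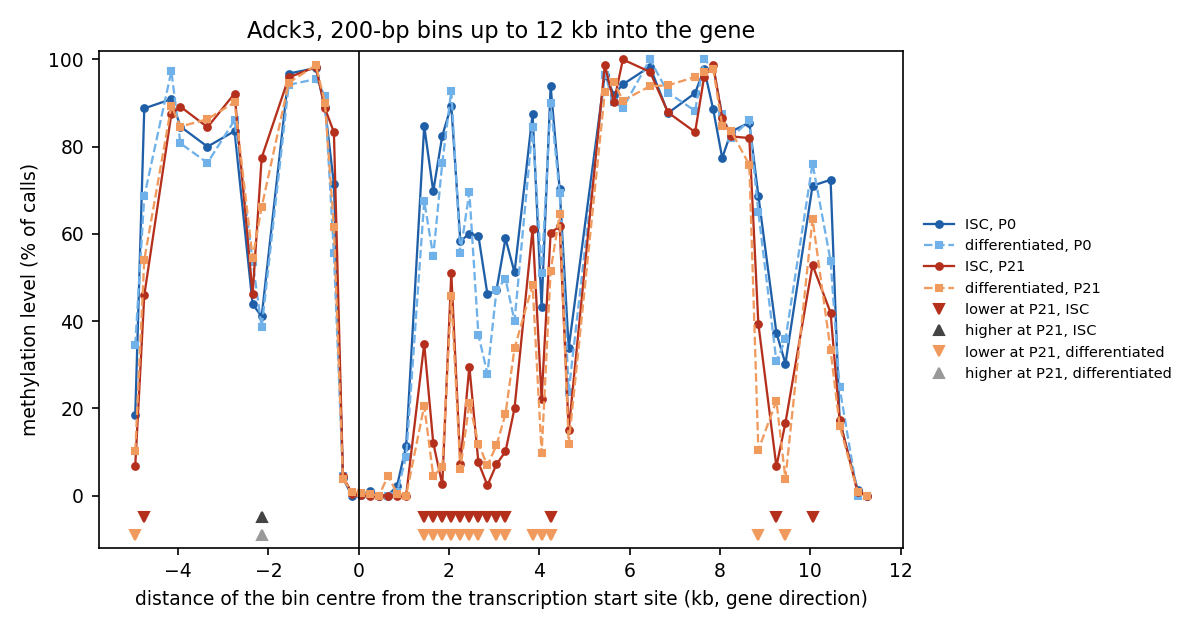
Methylation level of the tested 200-bp bins around the start and in the first part of Adck3 (y axis, percent) against their distance from the start site (x axis, kb along the gene) in the 4 libraries. The rest of the gene, with the last exon, is not drawn. The start is at or near 0 in all 4 libraries, and the 10-bin run in intron 1 goes from 66.7% to 17.5% in ISCs and from 59.0% to 15.1% in differentiated cells.

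Both genes were chosen for the length of their runs, so the number of such runs is given only as a description. Of all autosomal losing runs in ISCs 114 had 5 or more bins, in the windows of 83 genes, 3 had 9 or more bins and 2 had 10 or more, and the longest had 17. Among genes with a losing run of 5 or more bins, the run of Oxsr1, a kinase gene, was nearest to that of Nqo1 in its 4 levels (71.9%, 70.6%, 30.6% and 40%, at a Euclidean distance of 2.50 points). Next came the single run shared by Vars and D17H6S56E-5 at 5.25 points, Eef2k at 9.46 and Tifa at 10.5. Nearest to Adck3 were Slc25a42 (6.29 points), Mettl7b (7.21), Chst11 (7.75), Ptprj (8.997) and Klf9 (9.84). The likeness is over 4 libraries and over runs that were all chosen for a loss in ISCs.

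Gclc and Gclm encode the catalytic and modifier subunits of glutamate-cysteine ligase, which sets the rate of glutathione synthesis. The Gclc promoter was at 10.5%, 7.06%, 6.78% and 6.95% in P0 ISCs, P0 differentiated cells, P21 ISCs and P21 differentiated cells. It fell in ISCs (-3.71 points, interval -5.78 to -1.70, Fisher's exact adjusted p = 0.0034) and differed by -0.105 points in differentiated cells (interval -1.43 to 1.27), and with equal weight for each bin the values were -13.9 in ISCs and -8.29 in differentiated cells. The body of Gclc was at 76.3%, 75.5%, 75.9% and 73.4%, and the -2.03 points in differentiated cells passed the test (Fisher's exact adjusted p = 0.00056) but became 2.39 on the minus strand alone. Its largest fall in ISCs lay upstream of the start at chr9:77601201-77601400, with 84.3% and 32.5% in ISCs (Fisher's exact adjusted p = 1.8e-09) and 77.0% and 48.4% in differentiated cells. Its largest difference in differentiated cells was a rise in intron 6 at chr9:77631601-77631800, from 20.4% to 55.9% (Fisher's exact adjusted p = 0.00046), and ISCs stood at 26.3% and 62.9%.

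The Gclm promoter, with 151 CpGs, was at 1.003% or less in every library, and its body fell by a like amount in both populations, from 84.5% to 77.9% in ISCs and from 80.4% to 74.3% in differentiated cells (Fisher's exact adjusted p = 3.7e-11 and 4.7e-12). Its largest fall in ISCs was in intron 1 at chr3:121950401-121950600, from 85.7% to 27.8% (Fisher's exact adjusted p = 0.00014; 36.4% and 15.4% in differentiated cells). Its largest in differentiated cells was upstream at chr3:121947001-121947200, from 78.3% to 40.7% (Fisher's exact adjusted p = 0.0016; 83.3% and 59.1% in ISCs). A 2-bin stretch of intron 1, chr3:121950201-121950600, went from 46.5% to 6.25% in ISCs and from 25% to 1.961% in differentiated cells, with both bins called in ISCs and one in differentiated cells. Intron 1 as a whole was at 65.0%, 46.0%, 52.8% and 44.2%, but the difference of -19.0 points between the populations at P0 became -4.48 when each bin had equal weight.

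Hmox1, the heme oxygenase gene (chr8:77617490-77624495, plus strand), was the member without a called bin: 0 of 28 were called in ISCs and 0 of 28 in differentiated cells. Beside the 1.48% and 1.86% of all bins that were lower, 28 bins are too few for this absence to be read as a trait of Hmox1. Its body stayed high, at 89.1%, 87.6%, 88.2% and 88.0%. Its promoter was at 6.14%, 5.06%, 8.75% and 6.95%, slightly higher at P21 in ISCs (2.61 points, Fisher's exact adjusted p = 0.042) and in differentiated cells (1.89 points, Fisher's exact adjusted p = 0.045), a direction that turned with equal weight for each bin (-0.828 and -1.28 points). The bins over exon 1 and the first bases of intron 1 were at 1.14% or less in all libraries.

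Txnrd1 and Srxn1 encode thioredoxin reductase and sulfiredoxin, which return oxidised thioredoxin and overoxidised peroxiredoxins to use. The start of the longest Txnrd1 coding transcript (Txnrd1-204) was methylated and its promoter rose with age, from 71.03% to 83.5% in ISCs (12.5 points, interval 7.93 to 16.9, Fisher's exact adjusted p = 3.5e-06) and from 71.3% to 78.05% in differentiated cells (6.70 points, interval 2.85 to 10.5, Fisher's exact adjusted p = 0.0055). The start shared by Txnrd1-201 and Txnrd1-202, further inside the gene, was unmethylated in all 4 libraries (0.451%, 0.582%, 0.816% and 0.251% over 41 CpGs). The gene thus held both kinds of start, and the rise was at the methylated one. Its intron 1 differed by -2.47 points in ISCs and -3.71 in differentiated cells and its body by -2.11 and -1.95, and both ISC values turned on the plus strand alone (3.18 and 1.45). Its largest bin differences were in ISCs at chr10:82326001-82326200, from 80.2% to 41.9%, and in differentiated cells at chr10:82352001-82352200, from 85.5% to 9.09% of 11 calls.

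The Srxn1 promoter was at 7.54%, 2.31%, 3.67% and 1.46%, and fell in ISCs (-3.86 points, interval -5.67 to -2.11, Fisher's exact adjusted p = 0.00027; -5.88 with equal weight for each bin). Its intron 1 rose in ISCs from 66.1% to 73.4% (7.36 points, interval 3.54 to 11.2, Fisher's exact adjusted p = 0.0012), a direction that turned on the minus strand alone. In differentiated cells intron 1 stood at 58.2% and 56.1%. Its exon 2, the last exon, fell in ISCs from 82.3% to 70.0% (-12.2 points, interval -16.6 to -7.71, Fisher's exact adjusted p = 6.1e-06) and stood at 70.1% and 70.8% in differentiated cells (interval of the difference -3.22 to 4.59). Within it chr2:151935401-151935600 went from 78.2% to 33.3% in ISCs (Fisher's exact adjusted p = 6.7e-09), against 48.3% and 31.9% in differentiated cells. The largest called bin in differentiated cells, upstream at chr2:151927401-151927600, went from 54.1% to 34.0% there and from 67.4% to 31.1% in ISCs.

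Gpx2 (chr12:77893322-77896541, minus strand, 2 exons) encodes the glutathione peroxidase of the gastrointestinal epithelium, and of the 10 genes it had the largest falls in intron 1, the body and the last exon. Its body was at 50.0% of 762 calls in P0 ISCs, 61.4% of 1406 in P0 differentiated cells, 16.7% of 846 in P21 ISCs and 14.7% of 1249 in P21 differentiated cells. It fell by 33.3 points in ISCs (interval of the change -37.6 to -28.9, Fisher's exact adjusted p = 1.6e-44) and fell by 46.6 points in differentiated cells (interval of the change -49.8 to -43.3, Fisher's exact adjusted p = 3.2e-138). Of 18961 gene bodies tested, this body of 30 CpGs had the largest fall in differentiated cells and the 8th largest in ISCs. Gpx2 was listed with earlier results of these data known, so its rank is a description. At P21 differentiated cells and ISCs differed by -1.93 points (interval -5.18 to 1.21).

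Each region of Gpx2 showed the same direction, but the regions overlap and are not separate results. The last exon lies within the body, and intron 1 lies across the body and the promoter. Intron 1 went from 21.9% to 1.82% in ISCs and from 28.2% to 0.789% in differentiated cells (-27.4 points, interval -31.2 to -23.7, Fisher's exact adjusted p = 6.4e-49). The last exon went from 76.6% to 34.1% in ISCs and from 78.3% to 25.3% in differentiated cells (-53.1 points, interval -57.0 to -48.7, Fisher's exact adjusted p = 3e-102). The promoter was at 16.99%, 25.5%, 7.01% and 11.2%, a fall that passed the test in both populations (-9.97 and -14.4 points, Fisher's exact adjusted p = 1.7e-05 and 7.7e-13) but not 15 points. The bin with the largest difference in ISCs, in intron 1 at chr12:77894201-77894400, stood at 73.7%, 60%, 11.5% and 0% of 25 calls, which allows up to 12%. The window of Gpx2 also overlaps Fntb and Rab15.

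**Figure D4:**
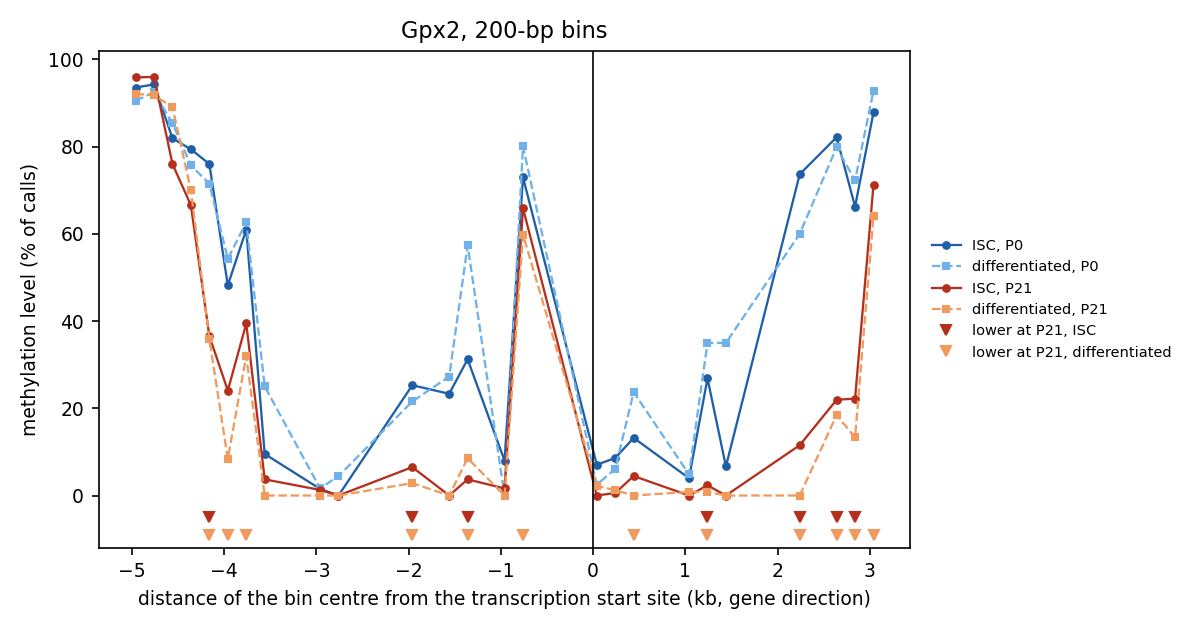
Methylation level of each tested 200-bp bin of Gpx2 (y axis, percent) against its distance from the start site (x axis, kb along the gene) in the 4 libraries. Towards the gene end the P0 levels lie far above the P21 levels, and the last exon goes from 76.6% to 34.1% in ISCs and from 78.3% to 25.3% in differentiated cells.

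Set side by side, the members called lower by more than 15 points were few in each region. Nqo1 and Adck3 are given as a description in both populations. In promoters it was Nqo1 in both populations, 1 of 10 members beside 1.1% of all promoters in ISCs and 1.09% in differentiated cells. In intron 1 it was Nqo1, Adck3 and Gpx2 in ISCs and Nqo1 and Gpx2 in differentiated cells, beside 1.4% and 1.19% of all genes with an intron 1. In the body it was Gpx2, beside 0.554% and 0.607%. In the last exon it was Nqo1 and Gpx2 in ISCs and Gpx2 in differentiated cells, beside 1.65% in each population.

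**Figure D5:**
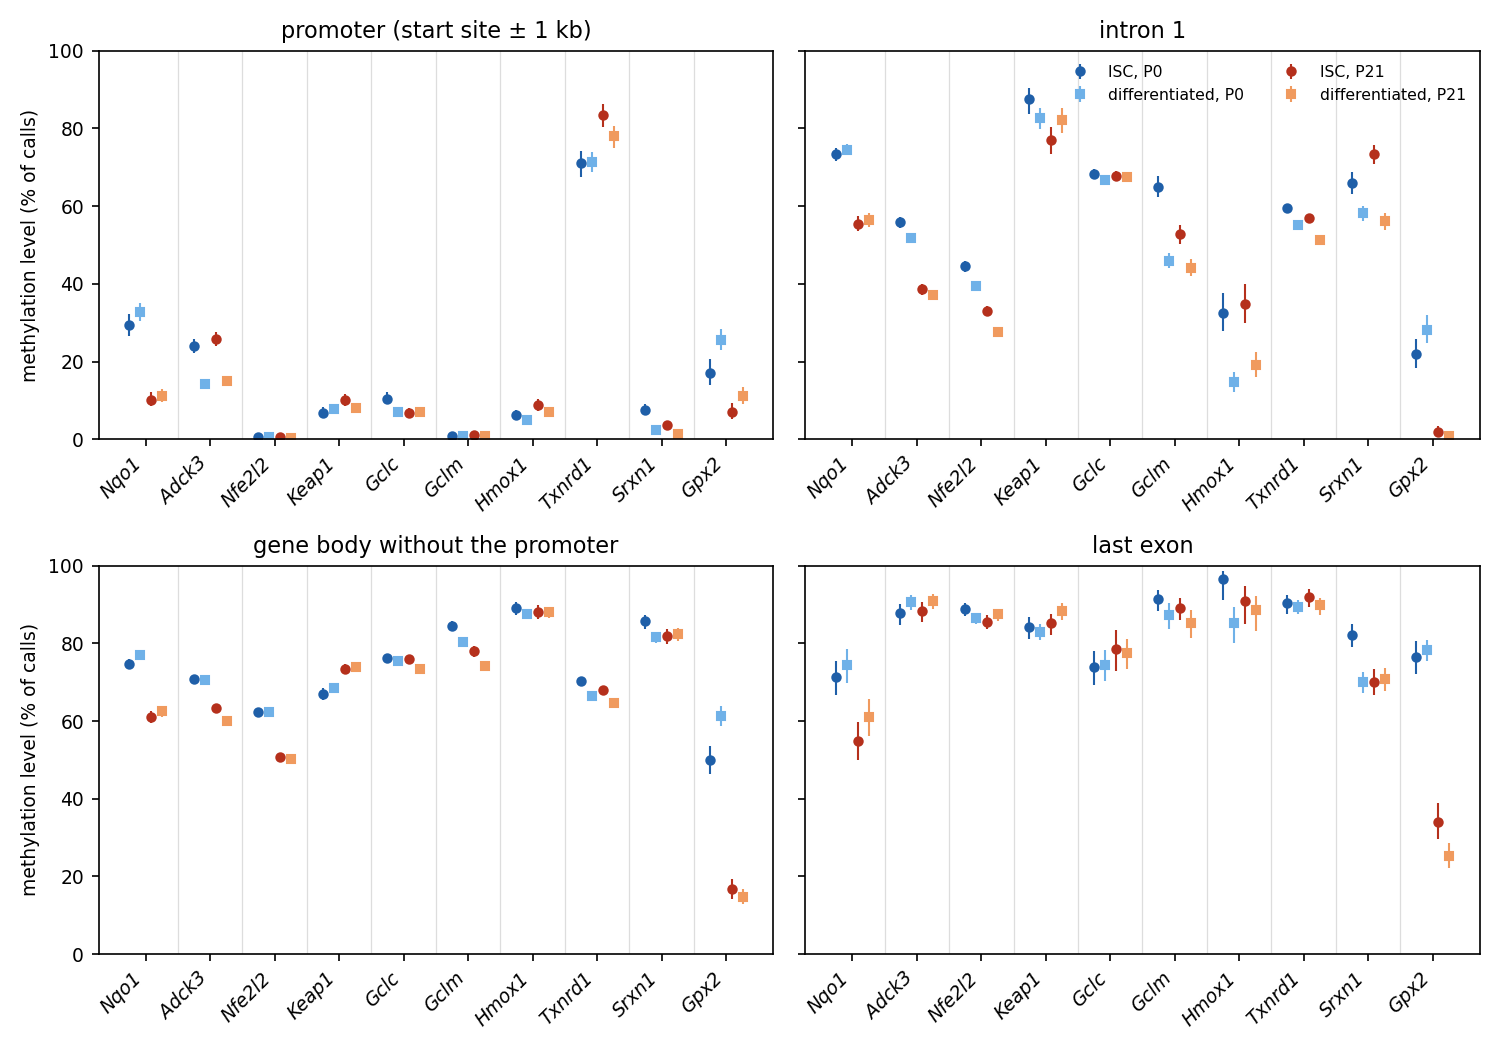
Methylation level (percent) of the promoter, intron 1, body and last exon of each of the 10 genes in the 4 libraries, with 95% Wilson intervals that cover counting error only. Gpx2 falls in all 4 regions, Nqo1 falls in all 4, and Adck3 falls in intron 1 and the body and not at the promoter or the last exon.

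Fewer bins differed between the populations within an age than between the ages within a population. At P0 12 of the 854 bins were called between them, 3 lower and 9 higher in differentiated cells (0.508% of all bins were called either way), and at P21 1 bin was called, in intron 4 of Txnrd1 (0.182% of all bins). Most of the P0 calls were lost when calls were thinned to the shallowest library. No share over all bins is given for that setting, so the P0 count is not read against 0.508%. One of the P0 bins, upstream of Nfe2l2 at chr2:75545201-75545400, stood at 33.3% in ISCs and 93.8% in differentiated cells, and at P21 at 17.6% and 57.1%. Of the intron 1 levels, 2 of 10 were called at P0 (Gclm and Hmox1) and 2 of 10 at P21 (Hmox1 and Srxn1), beside 4.67% and 2.34% of all genes. With equal weight for each bin the Hmox1 differences of -18.0 points at P0 and -15.7 at P21 became 0.796 and 3.01, and that of Srxn1 at P21 became 2.09 in place of -17.4. They are therefore not read as differences between populations.

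Whether the populations changed by unequal amounts with age was tested directly, with a two-sided Wald z test of the difference of the 2 changes over all genes (Benjamini-Hochberg adjusted). Nqo1 and Adck3 are left out, because their ISC change was used to choose them. Of the other 8 genes, past the threshold of 0.05 were 2 promoters (Gclc and Srxn1; 12.1% of all genes), 3 first introns (Keap1, Gclm and Srxn1; 16.1%), 1 body (Gpx2; 15%) and 1 last exon (Srxn1; 3.79%). With equal weight for each bin the first-intron values turned from -9.48 to 2.03 points in Srxn1 and shrank from 10.4 to 3.79 in Gclm and from 9.97 to 4.82 in Keap1, so these 3 calls are not read as unequal changes. The largest was in Gpx2, whose body change in differentiated cells differed from that in ISCs by -13.3 points. In the Srxn1 last exon the difference of the changes was 12.9 points. With 8 genes per region these counts are too small to be read against the shares over all genes.

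Promoters and runs were also searched for the element that NRF2 binds. The core of the antioxidant response element, TGACNNNGC on either strand, was found in the promoters of 7 of the 10 genes (not in those of Nqo1, Gclc and Hmox1), and in 52.2% of all 21410 promoters of the same length. The wider TGANNNNGC, which contains the first, was found in all 10 and in 95.8% of all promoters. In Nqo1 the nearest match upstream of the start was 435 bp away, on the gene strand at chr8:109927533-109927541, shown here with 16 bases on either side and the match in capitals.
Nqo1 match: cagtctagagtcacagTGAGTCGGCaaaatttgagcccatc
The CpGs within 100 bp of it were at 1.84% of 217 calls in P0 ISCs, 1.79% of 279 in P0 differentiated cells, 1.46% of 206 in P21 ISCs and 0.281% of 356 in P21 differentiated cells, so this stretch was unmethylated at birth while the run inside the gene was not. The Adck3 run held 1 match to TGACNNNGC and the Nqo1 run none, and 41.9% of windows as long as the Adck3 run and 38.8% of those as long as the Nqo1 run held one. Elsewhere the levels around a match varied: those by a match of the wider form 45 bp upstream of the Srxn1 start were at 0.33% or less, while those by a match of the core 556 bp into Txnrd1 were at 20.5%, 22.7%, 59.5% and 43.7%.

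Other genes of the same processes, listed with earlier results known, were counted in the same way (bins of each gene from 5 kb upstream to its end, a bin of several genes once). Of 28 genes of glutathione enzymes, 79 of 1598 bins were lower and 24 higher in ISCs (4.94% lower), and 91 were lower and 24 higher in differentiated cells. The shares over all bins, against which the lists are read, were 1.48% lower and 1.07% higher in ISCs and 1.86% and 0.992% in differentiated cells. Mgst1, a microsomal glutathione transferase, led with 17 lower bins and a promoter that stood at 41.4%, 35.0%, 9.90% and 11.7%. Of 17 genes of the thioredoxin and peroxiredoxin system found, 57 of 1768 bins were lower and 19 higher in ISCs (70 and 28 in differentiated cells), with Txn1, the cytosolic thioredoxin, at 12 lower and 0 higher. Of 21 genes of superoxide, quinone and iron handling, 72 of 1802 were lower and 29 higher in ISCs (80 and 27 in differentiated cells), led by the exporter Abcc2 (16 lower and 5 higher). Of 5 genes of NADPH supply, 33 of 557 were lower and 4 higher in ISCs (34 and 8 in differentiated cells), with Idh1 at 8 and 0.

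NRF2 partners and regulators had more higher than lower bins in ISCs. Their 11 genes had 28 lower and 41 higher bins of 1978 in ISCs (1.42% lower and 2.07% higher, beside 1.48% and 1.07% of all bins) and 31 and 29 in differentiated cells, with the most called bins in Bach2, a repressor that competes at the same elements (13 lower and 20 higher). Of 15 genes of coenzyme Q synthesis and related kinases, 34 of 1672 bins were lower and 15 higher in ISCs (2.03% lower; 32 and 16 in differentiated cells, where the 1.91% lower is near the 1.86% of all bins), and Pdss2, which makes the side chain of coenzyme Q, led with 14 lower and 5 higher bins.

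Sources of reactive oxygen had 20 of 326 bins higher and 15 lower in ISCs (6.13% and 4.60%), and 22 higher and 19 lower in differentiated cells. Of the 20 higher bins 19 were in Duox2, a hydrogen peroxide producing oxidase of the gut lining, and its maturation factor Duoxa2, which lie next to each other, share 40 bins and had the same 19 higher bins in ISCs. Over those bins the level was 21.9% in P0 ISCs, 21.4% in P0 differentiated cells, 65.2% in P21 ISCs and 54.7% in P21 differentiated cells.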

How the data were processed

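Whole-genome bisulfite libraries of 4 groups (ISC and differentiated cells at P0 and P21, taken from the labels) were analysed, with 1 pooled library per group. Per the submitters' notes and the study's methods, the authors trimmed the reads and mapped them to mm9 with Bismark and Bowtie, and deposited for each CpG cytosine its counts of total and of methylated calls, with the ratio as a fraction. The deposited fraction was not used. The version of Bismark is not given in the sources used here, nor is any removal of duplicate reads; if duplicates remained, Fisher's test calls too many bins.

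Strands were summed at reference CpGs, and 0.469% to 0.860% of autosomal positions, at no reference CpG, were left out. Calls were summed over 200-bp bins and tested where a bin had at least 2 CpGs and 10 calls in all 4 libraries (two-sided Fisher's exact test, Benjamini-Hochberg over all bins; called below 0.05 with more than 15 points). For the same regions of every autosomal protein-coding gene, calls were pooled over the promoter (start ± 1 kb), intron 1, the body (gene less promoter) and the last exon of the transcript with the longest coding sequence. Unequal change was tested with a Wald z test after adding 1 methylated and 1 unmethylated call per library. The limit for a level of 0 is 3 calls of the total. Of the 935 bins of the 10 genes with 2 or more CpGs, 854 (91.3%) were tested.

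The members and lists were chosen with earlier results of these data known. By the rule for named items, the text gives all 10 genes, the bins of the longest losing run of Nqo1 and Adck3 with their neighbours, the called bin with the largest difference in each population for the other 8 genes (1 bin of Gpx2 is not reported here), up to 3 genes per list with the most called bins in ISCs, and the 5 genes nearest in run level. Other bins and transcript starts were picked after their values were seen. Prdx4, G6pdx and Nox1 were not on a measured autosome and have no value. Alternatives were a minimum of 20 calls, more than 30 points, no test, calls thinned to the shallowest library, bins shifted by 100 bp, at least 4 CpGs, each strand alone, a promoter of ± 500 bp and means of bin levels. These means were taken for changes with age and for differences between populations. Those for differences between populations were chosen after seeing the data. Scripts were tested on simulated data. Python 3.11.15, NumPy 2.4.6, pandas 2.3.3, SciPy 1.17.1, numba 0.67.0 and matplotlib 3.10.9 were used. Sequences and gene models came from the mm9 reference and GENCODE M1.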

Additional observations from a re-analysis of the deposited data

Results flagged for a closer look

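In 7 regions of the 8 genes other than Nqo1 and Adck3 the difference between the populations in the pooled change with age passed a Wald z test of the difference itself (Benjamini-Hochberg adjusted over all genes, 1 library per group, so the test covers counting error only). The values below are the change in differentiated cells minus the change in ISCs, in points, each followed by the same quantity with equal weight for each bin. In the Gpx2 body the value was -13.3 (-9.15), as both populations fell and differentiated cells fell more. In the Srxn1 last exon it was 12.9 (9.04), with a fall in ISCs and no change past the test in differentiated cells. In intron 1 of Gclm it was 10.4 (3.79) and in intron 1 of Keap1 9.97 (4.82), where ISCs fell in both cases. In the promoters of Gclc and Srxn1, low in every library, it was 3.60 (5.64) and 3.02 (3.72). In intron 1 of Srxn1 it was -9.48, and with equal weight for each bin 2.03, so the direction turned. The 3 intron 1 values are not read as unequal changes. Coverage along these regions differed between the libraries of the 2 populations, and its part in these values was not tested. In the Adck3 body the value was -2.92 (-1.40), given as a description with no test, since the gene was chosen by its ISC change.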

How the results depend on the processing

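Counts over the 854 bins are given as lower and higher in ISCs, then lower and higher in differentiated cells, then called between the populations at P0 and at P21 (83, 12, 94, 14, 12 and 1 as reported). With a difference of more than 30 points they were 53, 5, 55, 4, 7 and 0. Without a test they were 165, 31, 153, 27, 81 and 59. With calls thinned to the shallowest library they were 67, 8, 60, 8, 2 and 0. With at least 4 CpGs they were 49, 10, 48, 7, 8 and 1. On the plus strand alone they were 27, 3, 37, 2, 3 and 0, and on the minus strand alone 55, 6, 69, 7, 2 and 0. With bins shifted by 100 bp the count at P21 was 3, and a minimum of 20 calls moved no count by more than 1.5 times.

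Of 316 alternative values of level changes, 15 were labelled as turned in direction. Gclc body in differentiated cells was 2.39 points on the minus strand (-2.03 reported). The Hmox1 promoter as a mean of bins was -0.828 in ISCs and -1.28 in differentiated cells. Hmox1 intron 1 in differentiated cells was -6.39 as a mean of bins, -0.478 on the plus strand and -8.18 on the minus strand (4.45 reported). On the plus strand Txnrd1 intron 1 was 3.18 and its body 1.45 in ISCs (-2.47 and -2.11 reported). The Srxn1 promoter in differentiated cells was 0.0166 within 500 bp and 0.127 on the minus strand (-0.845 reported), and Srxn1 intron 1 in ISCs was -1.92 on the minus strand (7.36 reported). Means of bins, chosen after seeing the data, gave 0.796 and 3.01 between populations in Hmox1 intron 1 at P0 and P21, and 2.09 in Srxn1 intron 1 at P21 with 2.03 for its difference of changes. They also gave -2.29 in the Nqo1 promoter at P0 (3.23 reported, with an interval that holds 0), 1.64 in the Nqo1 run at P21 (8.04 reported) and 4.64 in the Gpx2 body at P0 (11.4 pooled). Some further differences between populations turned with them as well, such as Srxn1 intron 1 at P0, from -7.87 to 0.063 points. The cause was not tested. The fall of the Nqo1 run in differentiated cells lay between -27.9 and -42.0 points and that of the Adck3 run between -42.5 and -49.0 in all alternatives run. No paired analysis was possible because each group has 1 library, so the groups share fewer than 2 replicate numbers and no residual spread is left for a block. Depth limits single bins: a bin of 10 calls cannot resolve differences near 15 points.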
